A study of Mus musculus with 4 samples.

Results

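*Muc19*, *A2ml1*, *Galnt12*, *Galnt6*, *B3gnt6*, *Gcnt1* and *Cgref1* are genes of mucous secretion and of the sugar chains that mucins carry. They were read from the single-cell RNA sequencing (scRNA-seq) of the mouse submandibular gland (SMG) and sublingual gland (SLG) as the rows of the count matrix whose gene symbol equals each name, and all 7 were found among the 32285 genes listed. The cells came from 4 samples of both glands together, taken from wild-type (WT) female C57BL/6N mice 6 to 8 weeks of age recorded as being in physiological status, with no other treatment, and all cells belong to this 1 condition. The labels name 2 mice and the 4 samples were deposited in 1 matrix, in which neither the gland nor the mouse of a cell is recorded. All values were therefore treated as 1 sample, with no test between samples, mice or glands. Intervals given below are exact 95% intervals that cover counting error only.

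Mucins are very large secreted glycoproteins that make saliva viscous, and most of their mass is sugar. The chains begin in the Golgi when a polypeptide GalNAc transferase (the *Galnt* family) places *N*-acetylgalactosamine on a serine or threonine. Core enzymes then add the first branching sugars, other transferases lengthen the chain, and sialic acid or fucose caps it. In the mouse, the sublingual gland is known for mucous acini and the submandibular gland for seromucous acini and granular ducts.

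The matrix held 15707 cells and 125100595 unique molecular identifiers (UMIs), tags that each mark 1 captured RNA molecule at its 3′ end. Cells had between 1374 and 141509 UMIs, and the median cell had 2608. The cells formed 24 clusters, of which 18 were given to 9 classes by marker genes, and 26.1% of cells stayed in 6 unnamed clusters. The members and their pathway lists were left out of the genes used for clustering. There were 3 acinar-like classes. The Mucl2-rich class had 4602 cells at a median of 6148.5 UMIs, the Dcpp-rich class 448 cells at 27799.5 UMIs, and the Muc19-positive class 119 cells, or 0.758% of all cells, at 5308 UMIs. The Muc19-positive class was 1 cluster, and 9 of 12 acinar markers were raised in it, among them the water channel gene *Aqp5* and the secretory cell factor gene *Bhlha15*. The duct keratin genes *Krt8* and *Krt18* were raised there too. Its name rests on *Muc19* being among the 10 genes with the largest fold to other cells, so the level of *Muc19* in it is a description. The fold was 373. *Muc19* also led cluster 17, at a fold of 1.90 and with 7 acinar markers raised. That cluster was left unnamed and is not among the named classes compared below.

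The level of a gene is given as its UMIs per 10000 UMIs of the class. Secretory products weigh on this scale, because the 10 most abundant genes took 75.5% of all UMIs and *Mucl2* alone 41.2%. Those 10 genes made up 89.0% of the UMIs of the Mucl2-rich class, 85.7% of the Dcpp-rich class and 56.6% of the Muc19-positive class. On the first scale the median log2 ratio over the 11235 genes with at least 100 UMIs was 1.86 for the Muc19-positive to the Dcpp-rich class and 1.91 to the Mucl2-rich class. With the 10 genes taken out of the total, called here the product-free level, these medians were 0.26 and −0.06. Ratios between acinar classes are therefore also given on the product-free scale.

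*Muc19*, the gel-forming mucin of salivary mucous cells, had 32863 UMIs, of which 26513 or 80.7% lay in the Muc19-positive class. Its level there was 191 (189 to 194), which came to 223 UMIs per cell, and every 1 of the 119 cells had it. The next class was duct-like at 1.58 from 1615 UMIs, followed by lymphoid-like at 0.724, mesenchymal-like at 0.631, Dcpp-rich at 0.576, myeloid-like at 0.375, basal or myoepithelial-like at 0.331, Mucl2-rich at 0.165 and vascular-like at 0.0919. Among neighbours in this order, the mesenchymal-like class did not differ beyond counting error from the lymphoid-like or the Dcpp-rich class, nor did the myeloid-like from the basal class or the Mucl2-rich from the vascular-like class. The lymphoid-like level was 1.26 times the Dcpp-rich level (1.07 to 1.48). Without cells of at least 20 *Muc19* UMIs this order did not hold, at 0.180 (0.132 to 0.239) and 0.223 (0.197 to 0.252), with overlapping intervals. The level in the Muc19-positive class was 121 times that in duct-like cells (116 to 128). Lymphoid-like cells should lack this mucin and had 0.153 UMIs per cell, where free RNA in the droplets was estimated to give 0.133. However, 3 of the 1239 lymphoid-like cells held 143 of their 190 UMIs. Without these 3 the lymphoid-like level fell from 0.724 to 0.180, with an interval of 0.132 to 0.239. The closeness to the free RNA estimate thus rested on these 3 cells. For *A2ml1* lymphoid-like cells had 0.130 UMIs per cell, under the estimate of 0.197. The myeloid-like level without its 1 such cell was 0.137. No expression of *Muc19* was read from any of these classes.

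The study's own quantitative PCR primers show which stretch of each secreted product's transcript its authors followed. They are shown because the UMIs above were counted on the same 2 genes, in 3′ libraries that do not record which exons were read.
Muc19 forward: aatcaacttgccatgtctacgg
Muc19 reverse: cttggccacagtaatcctcaag
A2ml1 forward: tttgcaactggaactcgacg
A2ml1 reverse: aacgatggcagcttctaggt
*Muc19* lies on the plus strand of chromosome 15 at 91838326 to 91934555 in GENCODE M21 on GRCm38. Its forward primer matched exon 22 of the 43 exons of the longest listed transcript (chr15:91892920-91892941), and the reverse primer spanned the junction of exons 22 and 23. The pair also matched 2 shorter *Muc19* transcripts, in one of which the forward primer ended 369 bases from the transcript end. *A2ml1* lies on the minus strand of chromosome 6 at 128539821 to 128581608, where the primers matched exon 11 (chr6:128570027-128570046) and exon 12 (chr6:128568896-128568915) of 36. None of the 4 primers was found whole in a transcript of another gene.

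*A2ml1* encodes a secreted protease inhibitor of the alpha-2-macroglobulin family. In the Muc19-positive class it reached 190 UMIs per 10000 (188 to 192), or 221 UMIs per cell, close to the values of *Muc19*. It was the only other member found in all 119 cells. Unlike *Muc19*, it had a clear second place. The Dcpp-rich class had 9.61 (9.44 to 9.79), 25.2 UMIs per cell, and 97.8% of its cells had at least 1 UMI. That class held 23.1% of the gene's 48849 UMIs and the Muc19-positive class 53.8%. Of the other named classes, duct-like cells came next at 1.74 and the basal class at 0.936, with the Mucl2-rich class last at 0.187. The unnamed clusters 17, 0 and 7 stood above duct-like cells, at 6.27, 5.55 and 4.53, and cluster 0 had the gene in 60.1% of its cells.

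The gap between the first and the second class depended on the measure. *A2ml1* was 19.7 times as high in the Muc19-positive class as in the Dcpp-rich class (19.3 to 20.2) on the first scale, 8.77 times per cell and 6.51 times on the product-free scale. The Dcpp-rich class had 16.7 *A2ml1* UMIs for each *Muc19* UMI. This ratio was 0.992 in the Muc19-positive class, 1.11 in duct-like cells, 1.13 in the Mucl2-rich class and 0.847 in lymphoid-like cells. The *A2ml1* of Dcpp-rich cells thus came with little *Muc19*, while the Muc19-positive cells had both genes in near equal counts. A few cells with at least 20 *Muc19* UMIs weighed on the ratios outside the Muc19-positive class. Without them duct-like cells had *A2ml1* at 0.618 and *Muc19* at 0.345, lymphoid-like cells 0.352 and 0.180, and the Dcpp-rich class 9.12 and 0.223, so that *A2ml1* exceeded *Muc19* in all 3.

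*Galnt12* and *Galnt6* encode GalNAc transferases that start the chains. *Galnt12* (chr4:47091909-47123070, plus strand) had 288 UMIs, 96 of them in the Muc19-positive class, where its level was 0.693 (0.561 to 0.846). Its second place was not acinar. Myeloid-like cells had 55 UMIs at 0.193 (0.145 to 0.251), and the ratio of the first to the second class was 3.60 (2.56 to 5.11), or 7.28 on the product-free scale. Lymphoid-like cells followed at 0.0648, the Dcpp-rich class had 20 UMIs at 0.0170, the Mucl2-rich class 45 UMIs at 0.00596, and vascular-like cells none. Against the Dcpp-rich class the product-free level was 13.4 times as high, and against the Mucl2-rich class 29.6 times. The myeloid-like signal was spread over its clusters, with 42 UMIs in cluster 6 and 9 in cluster 14, both led by macrophage genes such as *Trem2* and *Mrc1*. The predicted gene Gm12424 overlaps *Galnt12* on the same strand, so reads of the pair may not be separable.

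*Galnt6* (chr15:100691813-100729376, minus strand) showed another pattern. It had only 71 UMIs in 69 cells, and 39 of these UMIs were in lymphoid-like cells, at 0.149 (0.106 to 0.203). Of those, 35 were in cluster 4, which was led by the cytotoxic genes *Gzmb* and *Gzmc* and held 1048 of the 1239 lymphoid-like cells. The Muc19-positive class came second with 6 UMIs at 0.0433 (0.0159 to 0.0943), and the lymphoid-like level was 3.43 times as high (1.44 to 9.92). Counted per cell the order turned, since the deeper Muc19-positive cells had 0.0504 UMIs each and lymphoid-like cells 0.0315. The Dcpp-rich class had none in 448 cells and the Mucl2-rich class 4. The antisense gene *Galnt6os* overlaps it on the other strand.

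*B3gnt6* and *Gcnt1* encode core enzymes. The product of *B3gnt6* acts on the first sugar of the chain, and that of *Gcnt1* adds a branch after *C1galt1* has acted. *B3gnt6* (chr7:98192417-98199481, minus strand) had 635 UMIs and was counted mostly in the Muc19-positive and Dcpp-rich classes. It reached 1.33 (1.14 to 1.54) in the Muc19-positive class with 184 UMIs, and 0.227 (0.201 to 0.256) in the Dcpp-rich class with 267 UMIs, the larger number. Unnamed cluster 0, in which *Dcpp* genes took 48.7% of UMIs, had another 114. The Mucl2-rich class, with 4602 cells, had 14. The ratio of the first to the second class was 5.84 (4.82 to 7.08), but 2.59 per cell and 1.93 on the product-free scale, under the fold of 2 used here. Against the Mucl2-rich class the first scale gave 717-fold and the product-free scale 182-fold.

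*Gcnt1* (chr19:17326141-17372844, minus strand) was not detected in the Muc19-positive class. A count of 0 UMIs there allows a level of up to 0.0217, and 0 of 119 cells allow a share of up to 2.52% of cells with a UMI, both taken at 3 counts. The Dcpp-rich, basal and vascular-like classes had none either. Of its 84 UMIs, 40 were in lymphoid-like cells at 0.153 (0.109 to 0.208) and 18 in myeloid-like cells at 0.0631 (0.0374 to 0.0996). Within the lymphoid-like class, 33 were in the cytotoxic cluster 4, with most of its cells, and 5 in cluster 20, led by the T cell receptor chain genes *Cd3d* and *Cd3g*. *Galnt6* and *Gcnt1* therefore peaked in the same class, away from the other 5 members. Their lymphoid-like counts of 0.0315 and 0.0323 UMIs per cell stood against 0.000287 and 0.000339 estimated for free RNA.

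*Cgref1* (chr5:30933143-30945591, minus strand) encodes a secreted protein with calcium-binding EF-hands. It had 744 UMIs, of which the Muc19-positive class held 323 at a level of 2.33 (2.08 to 2.60). The second class was mesenchymal-like at 0.0595, from only 10 UMIs, and the ratio was 39.2 (21.02 to 82.45). The Mucl2-rich class had 251 UMIs at 0.0332 and the Dcpp-rich class 33 at 0.0281, which did not differ beyond counting error on this scale. The product-free levels were 5.38 in the Muc19-positive class, 0.302 in the Mucl2-rich class and 0.197 in the Dcpp-rich class, ratios of 17.8 and 27.4. On that scale the Mucl2-rich class came second.

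**Figure D1:**
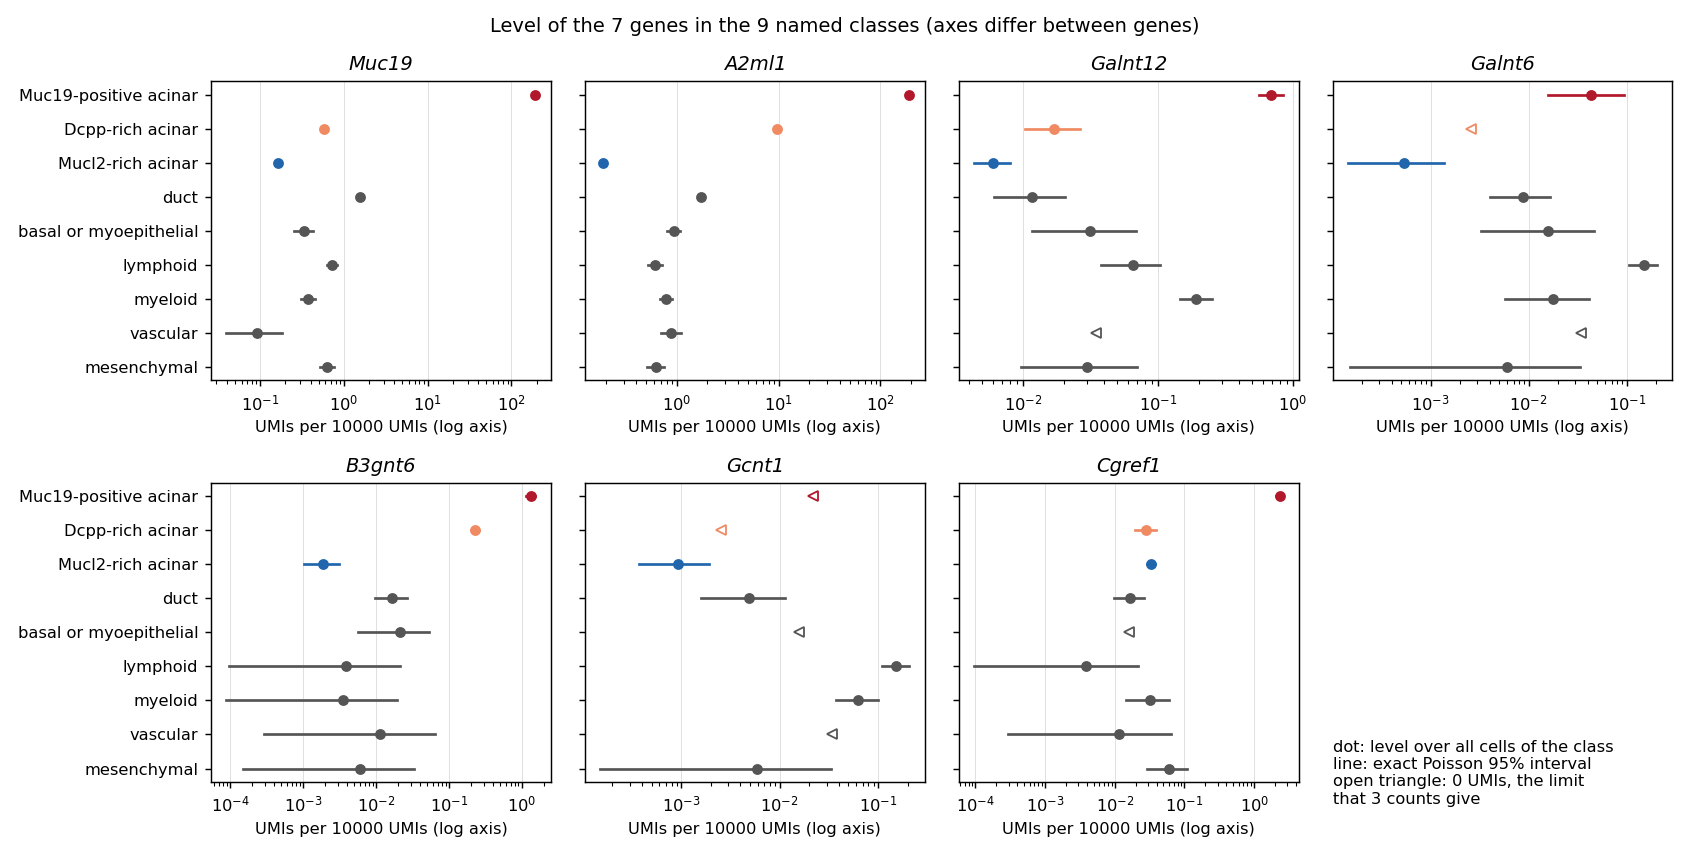
Level of the 7 genes (horizontal log axis, UMIs per 10000 UMIs of the class) in the 9 named classes, with a dot for the class, a line for its exact Poisson 95% interval and an open triangle for the limit of 3 counts where no UMI was counted. *Muc19*, *A2ml1*, *Galnt12*, *B3gnt6* and *Cgref1* were highest in the Muc19-positive class, and *Galnt6* and *Gcnt1* in lymphoid-like cells.

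Read across the 9 classes, 5 of 7 members were at least 2-fold higher in the Muc19-positive class than in every other named class, and these 5 were all the members that had the 100 UMIs needed to be counted. Of all 11235 genes tested, 1.2% did the same. On the product-free scale it was 4 of the 7, with *B3gnt6* falling short, against 0.943% of genes. *Galnt12* fell under 2-fold where the Muc19-positive cells were clustered together with others, at log2 ratios of 0.53 (resolution 0.3), 0.03 (10 principal components), 0.56 (all variable genes kept) and 0.48 (cluster 17 joined), and so did *B3gnt6* with 10 components, at 0.85. Because the members were chosen with earlier results on these cells known, the counts describe them and are no independent evidence.

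Shares of cells with a UMI followed the levels but also the depth. In the Muc19-positive class 86.6% of cells had *Cgref1*, 73.1% *B3gnt6*, 52.9% *Galnt12* and 4.20% *Galnt6*. With every cell thinned to 1000 UMIs the first 3 of these became 34.5%, 17.6% and 12.6%, whereas *Muc19* and *A2ml1* stayed at 100%. In lymphoid-like cells, at a median of 1868 UMIs against 5308, the unthinned shares were 0.0807% for *Cgref1*, 0.0807% for *B3gnt6* and 1.29% for *Galnt12*. No cell of the matrix fell below 1000 UMIs.

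The 119 cells of the Muc19-positive class were not uniform. In 75 of them, the 3 *Dcpp* genes, which encode small secreted salivary proteins, made up 0.0942% to 5.11% of the UMIs of the cell. In the other 44 they made up 15.6% to 78.2%. A limit of 10% between these groups was set after the values had been seen. The *Dcpp*-poor cells had a median of 4396 UMIs and 1469 genes, the *Dcpp*-laden cells 24385 UMIs and 2231.5 genes. *Muc19* was found at 221 UMIs per cell in the former and 225 in the latter, so the count of the mucin hardly differed while its median share of a cell fell from 5.35% to 0.944%. Cells ranged from 2 to 694 *Muc19* UMIs in the first group and from 6 to 532 in the second.

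Per cell, 4 other members were also close across this divide. *A2ml1* had 209 and 240 UMIs per cell in *Dcpp*-poor and *Dcpp*-laden cells, *Galnt12* 0.853 and 0.727, *B3gnt6* 1.37 and 1.84, and *Cgref1* 2.83 and 2.52. *Galnt6* was not, with 0.0133 per cell from 1 UMI in the poor cells and 0.114 from 5 UMIs in the laden cells, and *Gcnt1* had none in either. On the product-free scale the laden cells were lower, at 314 against 582 for *Muc19*, 1.01 against 2.25 for *Galnt12*, 2.56 against 3.62 for *B3gnt6* and 3.51 against 7.44 for *Cgref1*. Products of the Dcpp-rich class did not behave so. *Bpifa2*, a secreted protein that binds lipopolysaccharide, had 0.693 UMIs per cell in *Dcpp*-poor cells, 482 in *Dcpp*-laden cells and 652 in the Dcpp-rich class. *Pglyrp1*, which binds bacterial peptidoglycan, had 3.89, 52.4 and 60.4. Per cell, the *Dcpp*-laden cells thus carried about as many UMIs of *Muc19*, *A2ml1*, *Galnt12*, *B3gnt6* and *Cgref1* as *Dcpp*-poor cells. Of *Bpifa2* and *Pglyrp1* they had far more than *Dcpp*-poor cells but fewer than Dcpp-rich cells. They also had more UMIs of myeloid markers, 7.09 per cell against 0.88 in *Dcpp*-poor and 1.01 in Dcpp-rich cells, with 14 of 15 markers detected, *Cd74* the most abundant and *Adgre1* at 0. For the 9 basal or myoepithelial markers the values were 1.20, 0.04 and 0.268 per cell, with *Acta2* the most abundant and *Trp63* at 0. For the 7 pericyte markers they were 0.477, 0 and 0.0179, most of the first from *Rgs5*. The 12 vascular markers had 0.386, 0.0533 and 0.107 and the 5 Schwann cell markers 0.364, 0.04 and 0.174. The doublet score was 0.0691 in *Dcpp*-laden and 0.0496 in *Dcpp*-poor cells (medians), but the caller marked none of the cells. The part of droplets that held more than 1 cell in these values was not tested.

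**Figure D2:**
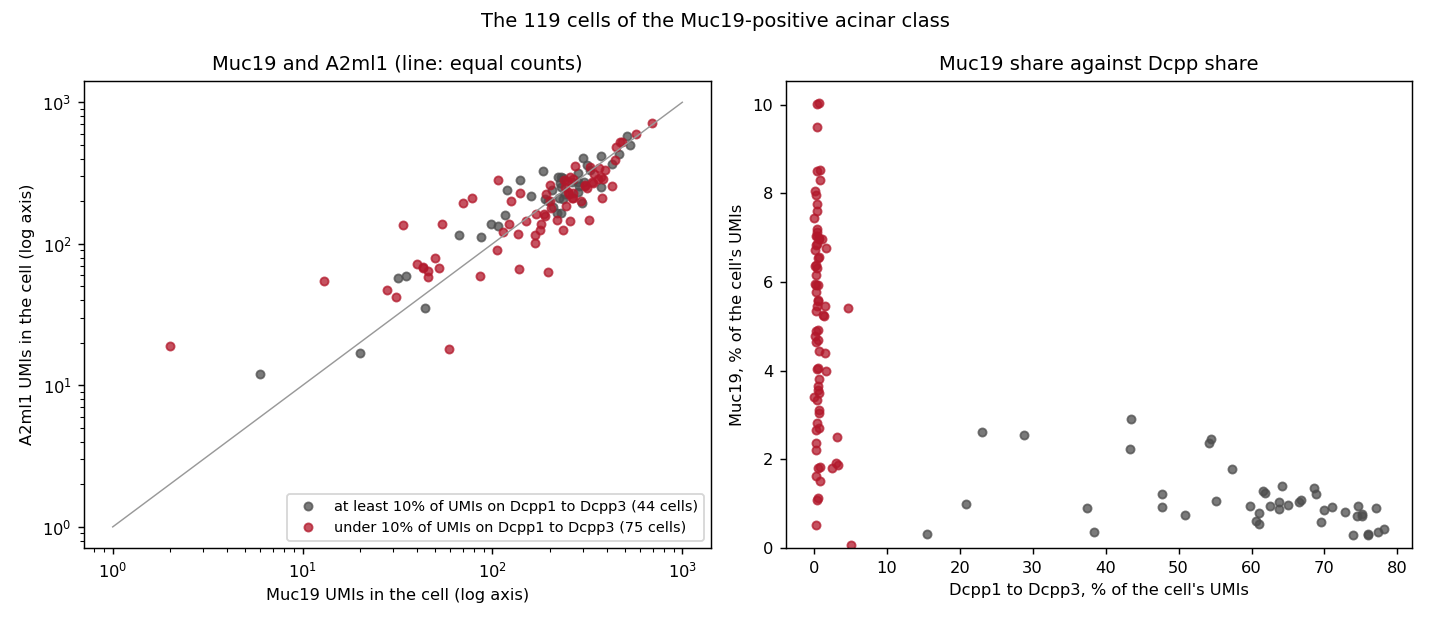
The 119 cells of the Muc19-positive class, with *A2ml1* against *Muc19* UMIs per cell on log axes (left, line for equal counts) and the share of *Muc19* against that of the 3 *Dcpp* genes in percent of the UMIs of the cell (right). Red points are the 75 *Dcpp*-poor cells and grey points the 44 *Dcpp*-laden cells, and both lie along the line of equal counts although the *Muc19* share drops where *Dcpp* is high.

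Within single cells *A2ml1* and *Muc19* came in near equal numbers. The median ratio of *A2ml1* to *Muc19* UMIs was 1.03, with quartiles at 0.829 and 1.30, and *A2ml1* was the more frequent in 62 of 119 cells. On the log2 of each gene's share of the UMIs of a cell, Pearson's r was 0.888 over the 119 cells. It was 0.691 within the *Dcpp*-poor cells. The cells share 1 matrix and differ in depth. Both shares have the UMI total of the cell as divisor, and *Dcpp* genes made up very different parts of that total. How much of r came from this shared divisor was not tested. Of the 3 less abundant members *Galnt12*, *B3gnt6* and *Cgref1*, 47 cells had a UMI of all, 46 of 2, 20 of 1 and 6 of none.

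*Muc19* was also counted in large numbers in some cells outside the class. At least 20 UMIs were found in 161 cells, 116 of them in the class. The other 45 held 2646 UMIs, or 41.7% of all *Muc19* UMIs outside the class, and each of them also had *A2ml1*. They comprised 17 duct-like, 14 cluster 17, 6 Dcpp-rich, 3 lymphoid-like and 2 Mucl2-rich cells, and single cells of the myeloid-like class, cluster 0 and cluster 7. The 17 duct-like cells carried 78.4% of the *Muc19* UMIs of the 2943 duct-like cells, and the duct-like level without them was 0.345 (0.309 to 0.383). Without such cells the Dcpp-rich level was 0.223 and the lymphoid-like level 0.180. The mesenchymal-like class held no such cell, and its level of 0.631 (0.517 to 0.763) lay above the duct-like level without the 17 cells. The second place of duct-like cells thus rested on few cells. Cluster 17, unnamed, with 159 cells at a median of 13002 UMIs, had *Muc19* at 4.91 (4.63 to 5.19) in 74.8% of its cells, or 3.11 without its 14 cells above, and *A2ml1* at 6.27 in 83.6%. *Cgref1* was at 0.153 from 38 UMIs, also above its level in every named class other than the Muc19-positive.

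The promoters of *A2ml1* and *Cgref1* are shown since these 2 members had the highest Pearson's r with *Muc19* over clusters (by Spearman's rho *B3gnt6* came before *Cgref1*), and since the factor genes *Creb3l1* and *Creb3l4* were higher in the Muc19-positive class than in the other acinar classes. Each is the stretch from 250 bases before to 50 after the start in RefSeq (GRCm38.p6), on the minus strand, read 5′ to 3′. Capitals mark ACGTG or its reverse complement CACGT, the core bound by the CREB3 family and XBP1.
A2ml1 chr6:128581557-128581856: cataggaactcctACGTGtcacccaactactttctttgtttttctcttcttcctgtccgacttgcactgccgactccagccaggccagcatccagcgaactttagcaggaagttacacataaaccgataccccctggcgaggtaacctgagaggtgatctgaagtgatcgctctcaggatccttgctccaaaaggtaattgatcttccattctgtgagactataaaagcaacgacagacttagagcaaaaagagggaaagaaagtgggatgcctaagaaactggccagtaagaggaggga
Cgref1 chr5:30945378-30945677: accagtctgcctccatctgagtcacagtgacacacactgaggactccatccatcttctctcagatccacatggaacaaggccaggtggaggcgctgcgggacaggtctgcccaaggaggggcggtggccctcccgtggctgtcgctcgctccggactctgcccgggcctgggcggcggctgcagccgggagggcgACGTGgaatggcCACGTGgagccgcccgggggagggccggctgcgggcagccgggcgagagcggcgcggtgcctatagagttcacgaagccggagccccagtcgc
*A2ml1* had the letters once, 237 bases before its start. *Cgref1* had them 3 times, 2 of which overlap as CACGTG, which is also an E-box. One of the *Galnt6* promoters had them once as well, 104 bases before its start, and those of *Gcnt1* did not. Of 32851 promoters of the same length 19.6% held ACGTG on either strand, so a match is common. Neither the forkhead core TGTTTA (13.4% of promoters) nor CAGCTG (16.3%) occurred in the 8 promoters of the 4 members that were found, *A2ml1*, *Galnt6*, *Gcnt1* and *Cgref1*. These matches are letters in a window and not shown binding sites.

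The surrounding pathway was described with 11 lists of 235 genes, of which 227 were in the matrix and 144 had at least 100 UMIs. On the first scale 102 of these 144 were at least 2-fold higher in the Muc19-positive class than in both other acinar classes and none was lower, but 69.7% of all genes were higher and 0.0712% lower by the same rule. On the product-free scale, 26 of 144 list genes (18.1%) were higher, against 4.57% of all genes, and 5 (3.47%) were lower, against 3.88%. The higher genes include *Muc19*, which named the class, and *A2ml1* and *Galnt12*, members chosen with earlier results on these cells known. *Spdef*, *Creb3l1* and *Creb3l4*, used as acinar markers in naming, are among them too. *Syt7* met the minimum of 100 UMIs only through the Muc19-positive class. The share of 18.1% is therefore a description and no independent evidence. The lower genes had at most 5 UMIs each in the class and none of them was lower on the first scale, while 19 of the 26 higher genes had at least 20. With the *Dcpp*-poor cells alone, 27 list genes were higher, 24 of them the same, and 12 were lower, 3 of them the same. The backgrounds were then 6.34% and 5.77%. The levels in the rest of this account of the lists are product-free levels.

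Among the enzymes that start the chains, 4 of 9 GalNAc transferases tested were higher and 1 was lower. The higher ones were *Galnt12*, *Galnt4*, *Galnt7* and *Galnt2*. *Galnt4* stood at 1.23 in the Muc19-positive class, at 0.0655 in the Dcpp-rich class and at 0.0505 in the Mucl2-rich class. *Galnt7*, which acts on peptides that already carry a first sugar, stood at 4.41, 1.13 and 1.65. *Galnt1* was the lower one, at 0.0333 (0.00403 to 0.120) from 2 UMIs against 0.0774 and 0.129, but with the *Dcpp*-poor cells alone it was not called. *Galnt3*, at 0.915, 0.744 and 1.44, did not pass the fold. The median log2 ratio of the 9 genes was 1.67 to the Dcpp-rich and 0.36 to the Mucl2-rich class, against 0.26 and −0.06 over all genes.

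None of the 4 genes tested in the core enzyme list passed the fold. However, *B3gnt6* did with the *Dcpp*-poor cells alone, at 2.27-fold over the Dcpp-rich class. *B3gnt6* was at 3.06, 1.59 and 0.0168 in the same order of classes. *C1galt1*, which makes the most common core, was at 1.02, 0.834 and 0.531, and its chaperone gene *C1galt1c1* at 0.499, 0.554 and 0.491. *Gcnt2* was at 0.250, 0.179 and 0.203. Unlike *B3gnt6*, these last 3 genes differed by less than 2-fold among the acinar classes. The median log2 ratio of the list was 0.38 to the Dcpp-rich and 0.62 to the Mucl2-rich class.

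**Figure D3:**
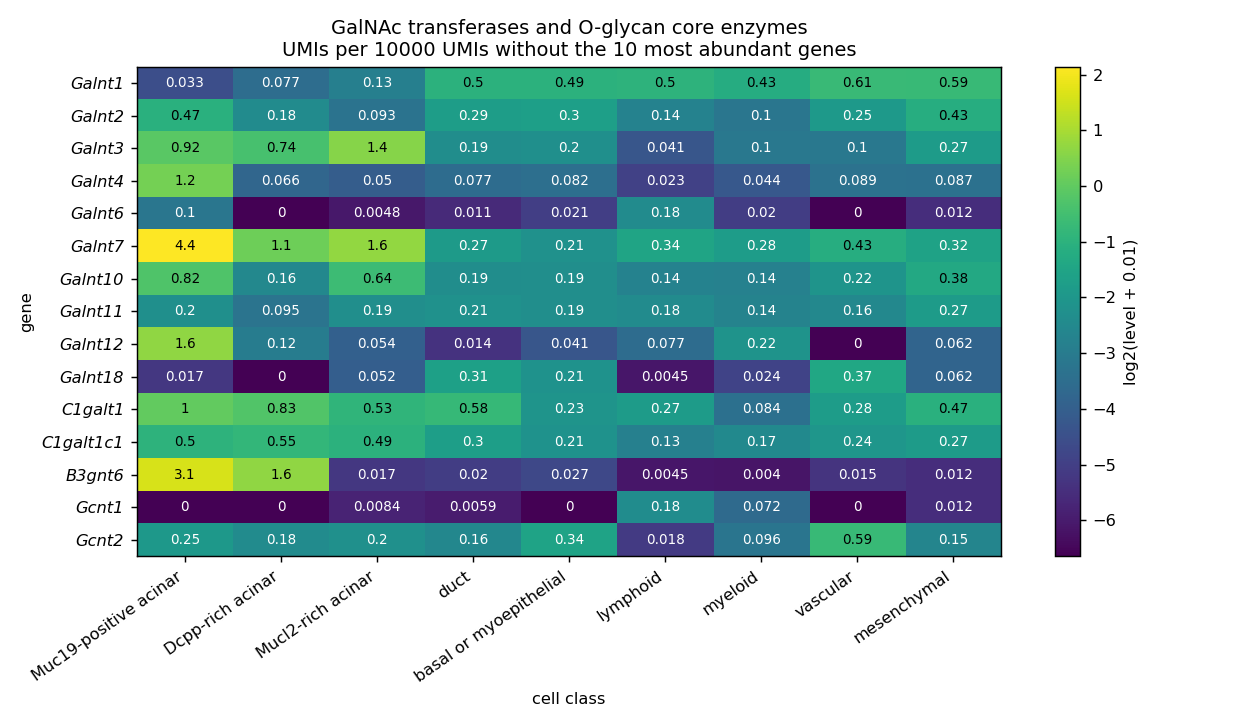
Product-free level of 15 genes of the GalNAc transferase and O-glycan core enzyme lists (rows) in the 9 named classes (columns). It is printed in each cell as UMIs per 10000 UMIs without the 10 most abundant genes, with the colour on a log2 scale after adding 0.01. *Galnt12*, *Galnt4*, *Galnt7* and *B3gnt6* were brightest in the Muc19-positive column, *Galnt6* and *Gcnt1* in the lymphoid column, and *Galnt1* was darkest in the Muc19-positive column.

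Which of the listed enzymes act on mucin chains was not tested, so the counts are of list members. None of 9 genes tested in the extension list was higher. *B4galt6* and *B3galt4* were lower with 5 and 1 UMIs in the class. With the *Dcpp*-poor cells alone *B3galt4* was not called. Of 11 genes tested in the capping list only *St3gal3*, a sialyltransferase gene with 11 UMIs, was higher. With the *Dcpp*-poor cells alone *St3gal3* and *St3gal5* were higher and *Fut9* was lower. The supply of sugar donors had 6 of 25 genes higher and 1, *Uap1l1*, lower. *Gfpt1*, the first and rate-limiting enzyme of the hexosamine pathway, was at 13.8 in the Muc19-positive class, 4.60 in the Dcpp-rich class and 5.61 in the Mucl2-rich class. *Slc35a1*, which carries CMP-sialic acid into the Golgi, was at 2.36, 0.220 and 0.604. *Gnpnat1*, *Gfpt2* and the GDP-fucose transporter gene *Slc35c1* were higher as well, and the list had a median log2 ratio of 0.57 to the Dcpp-rich and 0.44 to the Mucl2-rich class. These medians were −0.54 and 0.06 for the extension list and 0.50 and 0.98 for the capping list. With the *Dcpp*-poor cells alone they were −0.86 and 0.33 for extension and 1.34 and 1.70 for capping. For comparison, 3 of 29 *N*-glycosylation genes were higher, among them the branching enzyme gene *Mgat5* at 0.732, 0.0119 and 0.0276, with medians of 0.23 and 0.19 for the list.

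Genes of secretory cell identity, protein folding and granule release were among the higher ones as well. Of 13 transcription factor genes 4 were higher, and with the *Dcpp*-poor cells alone 4 were higher and 3, *Creb3l2*, *Elf3* and *Sox10*, lower. *Spdef* was at 3.56, 0.798 and 1.22 in the Muc19-positive, Dcpp-rich and Mucl2-rich class, *Creb3l1* at 8.26, 3.72 and 3.52, *Creb3l4* at 2.21, 0.566 and 0.298, and *Foxa1* at 1.66, 0.322 and 0.330. The first 3 of these also served as acinar markers when the clusters were named. The median log2 ratios were 0.43 and 0.82 for this list (0.13 and 0.77 with the *Dcpp*-poor cells alone), 0.19 and 0.69 for the folding genes and 0.43 and 0.18 for the exocytosis genes. Of 10 folding genes, *Agr2*, a disulfide isomerase needed for mucin folding, was higher at 2.50, 1.22 and 1.19, and so was *Pdia5* at 0.616, 0.0834 and 0.0493. Of 23 exocytosis genes 3 were higher, and *Syt7*, a calcium sensor of granule release, had 98 UMIs in the Muc19-positive class, 3 in the Dcpp-rich and 10 in the Mucl2-rich class. Of 9 mucin genes, *Muc19* and *Mcam* were higher, the latter a cell adhesion molecule with only 4 UMIs and not called with the *Dcpp*-poor cells alone, and *Mucl1* was lower with 2 UMIs. The 2 tested genes of the alpha-2-macroglobulin family included *A2ml1*, the one that was higher.

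**Figure D4:**
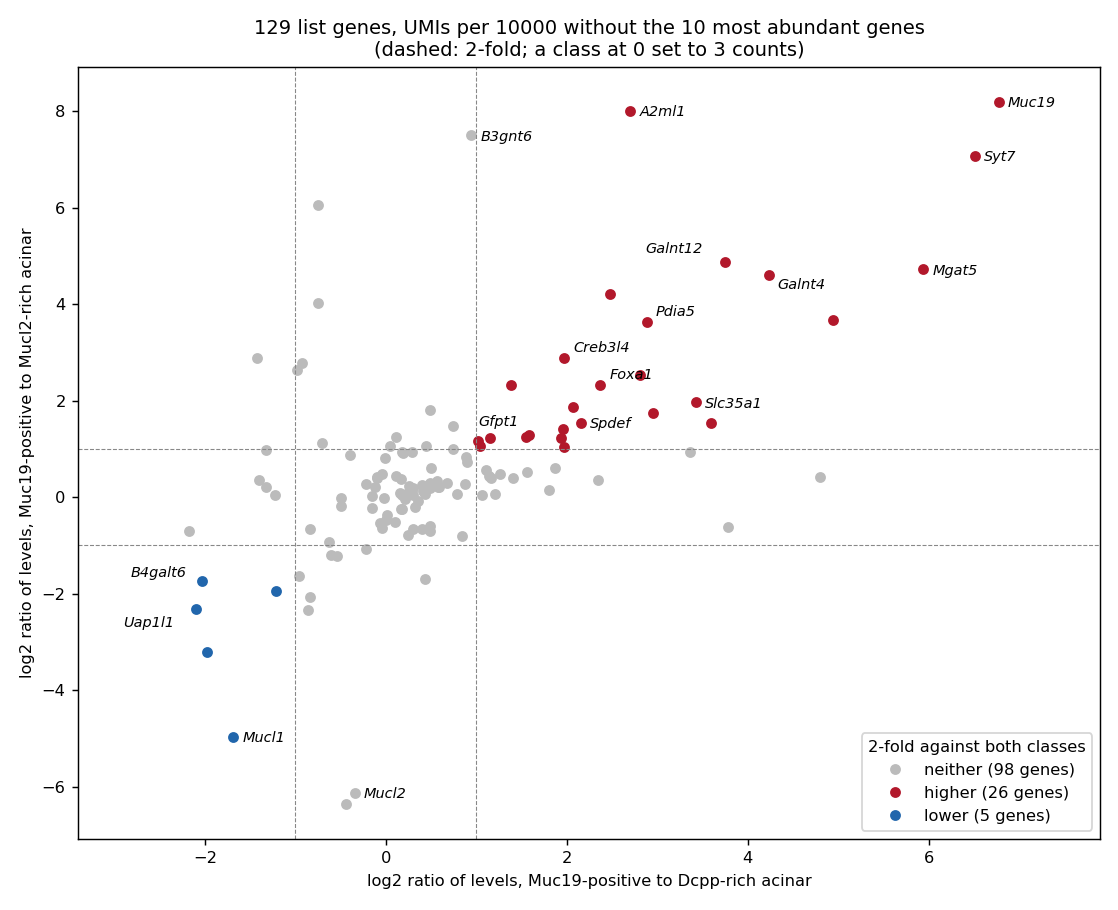
Log2 ratio of product-free levels in the Muc19-positive class to the Dcpp-rich class (horizontal) and to the Mucl2-rich class (vertical) for the 129 of 144 list genes that had a ratio to both, with dashed lines at 2-fold. Red points are the 26 genes higher than both, blue points the 5 lower than both and grey points the other 98, and *Muc19*, *A2ml1*, *Syt7* and *Mgat5* lie farthest towards the upper right.

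Over the 24 clusters, the genes whose level followed that of *Muc19* most closely among 11234 others were *Cgref1* with a Pearson's r of 0.853 on log2(level + 0.1), *A2ml1* with 0.846, *Lgals12* with 0.845, *Gfpt1* and *Gal* with 0.841, *Ccl28* with 0.821, *Amigo3* with 0.820, *Sel1l3* with 0.791, *Tmc5* with 0.790 and *Mfsd4a* with 0.788. The clusters share 1 matrix and its free RNA and differ in depth. *B3gnt6* was in rank 16 with 0.773 and *Galnt12* in rank 265 with 0.463. Much of the likeness was that of 1 cluster. Without the Muc19-positive cluster the r of *Muc19* was 0.662 with *A2ml1*, 0.588 with *Cgref1*, 0.334 with *B3gnt6* and −0.24 with *Galnt12*. *A2ml1* with *B3gnt6* was at 0.903 over all clusters and 0.813 without that one. *Galnt6* and *Gcnt1* were at 0.806 with each other and 0.849 without it, on 71 and 84 UMIs in all.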

How the data were processed

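Single-cell suspensions of both glands were run as 10x Genomics 3′ libraries. The authors deposited 1 matrix of raw UMI counts, whose header names Cell Ranger 6.0.1. The submitters' processing notes name the mm10 build and Seurat 4.1.1, and for the annotation used in counting the version was not given in the sources used here. Donor animals number 2 in the labels and 3 in the study's methods. The matrix holds 1 barcode suffix and 0 repeated barcodes, so it was used as 1 sample, and no test was possible.

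All 15707 barcodes were kept. Clustering used Seurat 5.3.0 in R 4.3.3, with counts log-normalized to 10000, 2000 variable genes less 40 that are members or list genes, 20 principal components and a resolution of 0.5. Clusters were named from marker lists. A cluster showed a marker if it was present in no fewer than 25% of its cells and exceeded the level in the remaining cells. Names required 3 or more such markers, with judgement where lists competed. Clusters 0, 7, 12, 15, 17 and 22 were left unnamed. Scrublet in scanpy 1.11.5 called 0 doublets, so the caller is taken not to have worked, and no cell was removed. The UMI total of a class set its precision, from 870725 UMIs in the vascular-like class upwards.

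Levels carry exact Poisson intervals, shares exact binomial (Clopper-Pearson) intervals, and ratios exact conditional binomial intervals, all at 95% and for counting error only. UMI counts mark molecule ends, so no division by transcript length was made. A gene counted as higher or lower at a fold of 2, among genes with at least 100 UMIs. A class at 0 was set to 3 counts, as a bound. From the acinar products *Scgb2b27*, *Pip* and *Mucl2* counted in lymphoid-like cells, each droplet was estimated to hold 505 UMIs of free RNA. Positions are from GENCODE M21 on GRCm38 (7 of 7 matched by identifier), and promoters from RefSeq GRCm38.p6. Calculations ran in Python 3.11.15 (scipy 1.17.1, numpy 2.4.6, pandas 2.3.3, with figures by matplotlib 3.10.9), and the steps were tested on simulated data.

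The members and lists were chosen with earlier results of these data known. The genes named include the 7 members, list genes past the fold against both other acinar classes, the core enzymes tested and the most abundant of a list. The 10 genes most like *Muc19* over clusters, the leading genes of clusters, marker genes and the 10 most abundant genes are named as well. *Pglyrp1*, *Wfdc12* and *Galnt3* were chosen after their values were seen. The values of 1 list gene past the fold are not reported here. The lists were named for mucins, GalNAc transferases, core, extension and capping enzymes of O-glycans, sugar donor supply and mucin folding. The others were named for secretory transcription factors, exocytosis, the alpha-2-macroglobulin family and *N*-glycosylation. The alternatives tried were other resolutions, numbers of components and clustering genes, cells filtered on genes and mitochondrial UMIs, levels per cell or without the most abundant genes, free RNA subtracted, high Scrublet scores left out, unnamed clusters joined to a class, another fold and minimum, and thinned cells.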

Additional observations from a re-analysis of the deposited data

How the results depend on the processing

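The Muc19-positive class was a cluster of its own at a resolution of 0.8 (119 cells), with 30 components (117 of its cells in a cluster of 139) and with a filter on cells (118 in 122). It was not at a resolution of 0.3 (119 in 275), with 10 components (111 in 888, mostly duct-like) or with all variable genes kept (118 in 325), where the cluster holding most of its cells was used. The log2 ratio of that class to the highest other class stayed positive in all 15 alternatives for 5 members. It ranged from 4.93 to 8.37 for *Muc19*, 2.55 to 6.57 for *A2ml1*, 0.03 to 4.01 for *Galnt12*, 0.85 to 4.05 for *B3gnt6* and 2.64 to 6.80 for *Cgref1*, the lowest each time with 10 components. The highest values of *A2ml1* and *B3gnt6* came at a resolution of 0.3, where not all 3 acinar classes formed and the second class was not acinar. It stayed negative for *Gcnt1* (−5.94 to −0.36), and for *Galnt6* it turned to 0.68 as mean UMIs per cell, where depth per cell enters the value. Of 144 list genes, 102 were higher than in both other acinar classes and 0 lower. As mean UMIs per cell these counts were 49 and 2 (26.6% and 0.65% of all genes), without the 10 most abundant genes 26 and 5 (4.57% and 3.88%), and without those genes in *Dcpp*-poor cells alone 27 and 12 (6.34% and 5.77%). At a resolution of 0.3 no such count could be made. A fold of 4 left 60 higher (24.9% of all genes), and cluster 0 joined to the Dcpp-rich class gave 3 lower (0.49%). With no minimum count 111 of 202 were higher (42.1%), and other alternatives gave 74 to 110 of 144 higher (46.1% to 85.7% of all genes) and 0 lower. By Spearman's rho 2 of the 10 genes most like *Muc19* were the same, and with no minimum count 7. Alternatives that join clusters, split the class, leave out cells with at least 20 *Muc19* UMIs or use the cluster holding most of the class were chosen after seeing the data. No paired analysis was possible because all cells are in 1 matrix without a map to samples. With 1 sample, no spread between mice is known, and the levels of *Galnt6* and *Gcnt1* rest on fewer than 100 UMIs each.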

Other observations

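*Smgc*, which encodes a secreted submandibular gland protein of early life, overlaps *Muc19* on the same strand in GENCODE M21, so its counts were set beside those of the mucin. Its level was 1522 UMIs per 10000 in the unnamed cluster 15 (232 cells), where *Muc19* was at 0.873, and 82.0 in the basal or myoepithelial-like class. The Muc19-positive class had 12.2, the Mucl2-rich class 2.88 and the Dcpp-rich class 0.433. The cluster with the highest *Smgc* level was thus not the one with the highest *Muc19* level. Both genes were nevertheless counted in the same cells, since 96.6% of Muc19-positive cells had *Smgc*, at 14.2 UMIs per cell, and its level was 31.7 in the *Dcpp*-poor ones. Lymphoid-like cells had *Smgc* at 6.16, or 1.30 UMIs per cell, in 19.5% of cells. Whether reads of either gene were given to the other was not tested.

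Other genes also differed between the *Dcpp*-poor and *Dcpp*-laden cells of the Muc19-positive class less than *Bpifa2* did. *Gal*, the neuropeptide gene galanin, had 1.48 and 1.18 UMIs per cell and *Sel1l3* 2.04 and 1.75. *Wfdc12*, a secreted protease inhibitor gene, had 224 and 200 against 4.71 in the Dcpp-rich class and 51.7 in the Mucl2-rich class. The glycan extension gene *B3galt5*, in contrast, had 0 UMIs in *Dcpp*-poor cells, 1.02 per cell in *Dcpp*-laden cells and 0.757 in the Dcpp-rich class.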
